A study of Mus musculus with 2 samples.

Results

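The cells described here carry the transcripts of fibroblasts, the matrix-making cells of the sclera, choroid, optic nerve sheath and other coats around the retina. They were chosen by measured UMIs (unique molecular identifiers, each a count of 1 captured transcript): at least 3 of the 7 genes Dcn, Lum, Col1a1, Col1a2, Col3a1, Pdgfra and Dpt with at least 1 UMI, at least 0.15% of the cell's UMIs in those genes, and none of Grem1, Ptx3, Myh11, Rgs5, Pecam1, C1qa, Rpe65, Krt5 and Mlana. The rule found 897 of 62485 kept cells, 720 of 39285 in the library labelled GFP and 177 of 23200 in the library labelled sponge. They are called the marker-selected cells below, because 355 of the 720 labelled GFP fell in clusters that also carried a retinal profile.

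Both libraries came from the optic cup of mice without Abca4 (genotype Abca4KO), a transporter of photoreceptors that clears retinoid by-products, and all mice received a vector in the eye. One library is labelled AAV2.8-GFP, an adeno-associated vector with green fluorescent protein, and the other AAV2.8-Sponge.mir181, a vector whose transcript is meant to hold miR-181a/b away from its targets. The series text has 1 eye of each mouse injected under the retina with each vector at 2 months of age and collected 4 months later, whereas the labels give an age of 4 months, and the number of mice and the promoters of the vectors were not given in the sources used here. Directions refer to these labels. Each group is 1 library, so there is no replicate error, no test and no p-value: every interval below is a 95% interval that covers counting error alone, and a difference between the libraries cannot be told apart from a difference between mice, eyes or dissociations. The eGFP sequence of the vector does not bear out the labels. It had 0 UMIs in the 720 marker-selected cells of the library labelled GFP, which allows a share of up to 0.417% of cells with a UMI, and 1 UMI in the 177 cells of the library labelled sponge, while other kept cells held 12 and 5483 UMIs. Abca4 was read at 48.6 and 32.4 CPM (a gene's UMIs summed over cells and scaled to a common total) in the marker-selected cells. A 3' read can lie outside a deleted stretch, so this does not check the genotype.

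Fibroblasts make and remodel collagen fibrils, proteoglycans and microfibrils, and supply growth factors to neighbouring cells. In the eye they come from neural crest and mesoderm, and they differ by site: scleral cells keep the eye wall stiff, adventitial cells surround vessels, and cells of the nerve sheath and choroid resemble those of the meninges. They also answer interferon and other cytokines by showing antigen on major histocompatibility complex (MHC) class I molecules.

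The sponge is directed at the miR-181 family, whose members share 1 seed, the stretch that pairs with targets. The mature sequences from RefSeq (GRCm38.p6) are shown because the vector is aimed at them, with the seed, bases 2 to 8, in capitals.
mmu-miR-181a-5p: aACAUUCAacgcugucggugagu
mmu-miR-181b-5p: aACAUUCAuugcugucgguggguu
Sequence miR-181a-5p lies at chr1:137966468-137966490 and miR-181b-5p at chr1:137966650-137966673, both on the plus strand. The DNA match of a site is TGAATGT.

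The share of kept cells that met the rule was 1.83% (1.70 to 1.97, exact Clopper-Pearson) for the label GFP and 0.763% (0.655 to 0.883) for the label sponge. The 2 sets differed in depth and quality. The cells labelled GFP held a median of 2610.5 UMIs and 1497.5 genes and those labelled sponge 6972 UMIs and 2835 genes, with 10.2% and 5.11% mitochondrial UMIs. In all other kept cells the median was 2409 and 2956 UMIs. The exclusion genes removed 911 of the 1631 cells that met the marker conditions in the library labelled GFP and 392 of 569 in the library labelled sponge. A count of 1 UMI was enough to remove a cell. The cells removed had a median of 3487 and 7968 UMIs, against 2610.5 and 6972 UMIs in the marker-selected cells. The part of depth in the removal was not tested. Without the exclusion genes the log2 ratio of the shares (sponge over GFP) was -0.76 in place of -1.26. The threshold left 60 and 4 cells just inside it (0.15% to 0.2% of UMIs in the 7 genes), and 63 and 8 cells just outside (0.1% to 0.15%). Exactly 3 of the 7 genes were found in 49.3% of the cells labelled GFP and 16.4% of those labelled sponge. Of 290 barcodes shared by both files, 5 belonged to a marker-selected cell, and none was selected in both.

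Genes outside the rule were looked up to see what else these cells share. Of 605 genes with at least 200 CPM in both libraries, the 20 with the highest level over other kept cells, each taken in the library where it was lower, were mostly secreted or matrix genes of mesenchyme. Gfpt2, which makes the sugar donor for glycosylation, was at 368 CPM against 27.6 CPM in other kept cells with the label GFP, and at 388 against 17.7 CPM with the label sponge. Apod, a lipid-binding secreted protein, was at 542 against 40.8 CPM and 761 against 45.5 CPM. Bgn, a proteoglycan of the decorin family, was at 259 against 20.8 CPM and 421 against 20.8 CPM. The peptide gene Edn3 was at 238 against 19.2 CPM and 882 against 23.3 CPM. Ccl11, a chemokine that draws eosinophils, was at 252 against 22.9 CPM and 381 against 11.7 CPM. Mgp, an inhibitor of calcification, was at 1749 against 189 CPM and 2372 against 121 CPM. The others were Igfbp5, Serpine2, Igfbp4, Crispld2, Lama2, Angpt1, Colec12, Rarres2, Ogn, Errfi1, Schip1, Ptn, Cped1 and Medag, and the fold over other kept cells ran down to 6.0-fold for Medag in the library labelled GFP. All 20 were also higher than in mural cells (254 and 111 cells with contractile and pericyte markers) in the library labelled GFP, and 18 of 20 in the library labelled sponge, where Mgp and Igfbp5 were at 3160 and 2633 CPM in mural cells. Some of the 18 were close to mural cells with the label sponge, such as Rarres2 (423 against 418 CPM) and Ogn (238 against 225 CPM). Others were far above, such as Ptn (7871 against 506 CPM). No interval was computed for this comparison. Cells that met the marker conditions but held Grem1 or Ptx3, and no other exclusion gene, numbered 25 and 16. Some of the 20 genes were higher there, such as Gfpt2 at 751 and 518 CPM. Others were lower, such as Edn3 at 68.3 and 395 CPM. The marker-selected cells were chosen by genes that travel with the 20, so the values are a description.

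Retinal transcripts were also read in these cells. The 12 rod markers were summed at 8973 and 4481 CPM in the marker-selected cells and at 10008 and 7996 CPM in other kept cells. All 12 were lower in the marker-selected cells of the library labelled sponge. The summed level was below that of other kept cells in both libraries, and the part of free RNA in it was not tested.

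Clustering of the 897 cells by themselves gave 11 clusters, which split into 2 kinds. In clusters 3, 5, 6, 7 and 9, all 10 leading genes of each cluster were higher in other kept cells than in the marker-selected cells outside the cluster. Cluster 3 led with Cntn5 and Grik1. Cluster 5 led with Ptprn and Dpp10 beside the highest rod markers (13225 CPM summed), above their level in other kept cells of either library. Cluster 6 led with Rgs6 and Nlgn1 beside the highest Müller glia markers (8374 CPM summed). Clusters 7 and 9 led with Lrrtm4 beside the highest bipolar cell markers (8335 and 7312 CPM summed). Of the 720 cells labelled GFP 355 lay in these retinal clusters, and of the 177 labelled sponge 33, so the label fibroblast is not borne out on its own for them. The 20 genes named above had a median of 58.2% and 55.2% of their non-retinal level in the retinal clusters, against 10.2% and 5.99% in other kept cells. The genes were ranked on cells that include the retinal clusters, so this describes those cells and is no independent evidence of what they are. Igfbp5 was at 2900 CPM in the retinal clusters and 3977 CPM in the non-retinal clusters of the library labelled GFP, against 363 CPM elsewhere. Their median depth was 3188 and 11293 UMIs, above the 2247 and 6417.5 UMIs of the non-retinal clusters. Droplets that hold 2 cells were not called or removed, and their part in these clusters was not tested. Results are given for all marker-selected cells and for the 509 cells of the non-retinal clusters, 365 and 144. The choice of clusters was made after seeing them.

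**Figure D1:**
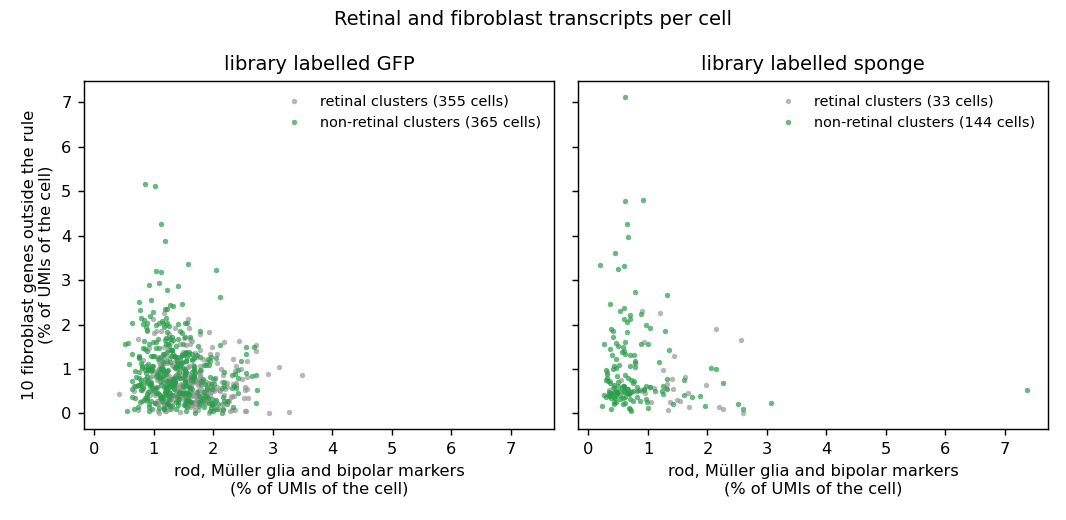
Each point is 1 marker-selected cell, with the share of its UMIs in rod, Müller glia and bipolar markers on the x axis and in 10 mesenchymal genes outside the rule on the y axis, for the library labelled GFP (left) and sponge (right). Cells of the retinal clusters (grey) and non-retinal clusters (green) overlap on both axes, with medians of 0.587% and 0.819% on the y axis in the library labelled GFP.

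The plot of shares per cell shows that no gap separates the 2 kinds. The retinal markers took a median of 1.55% of UMIs in the retinal and 1.31% in the non-retinal clusters of the library labelled GFP, against 1.90% in other kept cells. In the library labelled sponge the medians were 1.32%, 0.620% and 2.26%.

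Among the non-retinal clusters, 6 mesenchymal profiles were found. They are numbered and described by their leading genes, which are no result of a test. Cluster 1 (136 cells labelled GFP and 30 labelled sponge) led with Ccl11, Angpt1, a ligand that steadies vessels, Alpl, the alkaline phosphatase of mineralising tissue, and Adamts9, a protease of the proteoglycan versican. Cluster 2 (75 and 62 cells) led with Ptn, a heparin-binding growth factor, with Schip1, Penk, Stc1 and the transcript antisense to Tbx3. Cluster 4 (81 and 15 cells) led with Myoc, the glaucoma gene of the outflow tissue and sclera, and Thbs4, Igfbp6 and Ogn, genes of dense connective tissue. Cluster 8 (54 and 2 cells) led with Pi16, Dpt, Sfrp4, Ly6c1 and Ebf2, the set known from adventitial fibroblasts. Cluster 10 (19 and 17 cells) led with Igfbp2, Col12a1, a collagen that binds to fibrils, and Fmod, a proteoglycan of tendon. Cluster 11 (0 and 18 cells) led with Igf1, the growth factor, Kcnq3, a potassium channel, Adamts16, Itga8, Bmp2 and Notum, an enzyme that inactivates Wnt proteins.

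**Figure D2:**
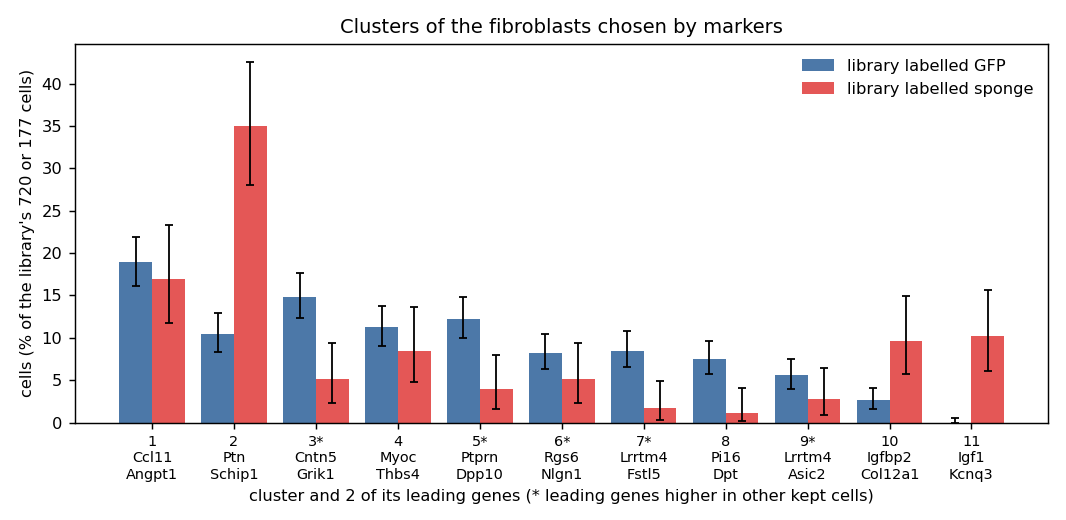
Bars give the share of the marker-selected cells of each library (720 and 177 cells) in each of 11 clusters, with exact 95% binomial intervals for counting error, and asterisks mark the retinal clusters. Cluster 2 held 10.4% of the cells labelled GFP and 35.03% of those labelled sponge, and cluster 11 held 0% and 10.2%.

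The mix of clusters differed between the libraries. Cluster 2 held 10.4% (8.28 to 12.9) of the cells labelled GFP and 35.03% (28.0 to 42.5) of those labelled sponge. Cluster 11 held 10.2% (6.14 to 15.6) of the cells labelled sponge and 0 of the 720 labelled GFP, a limit of 0.417%. Cluster 10 held 2.64% (1.60 to 4.09) and 9.60% (5.70 to 14.9), while cluster 8 held 7.50% (5.68 to 9.67) and 1.13% (0.137 to 4.02). As shares of all marker-selected cells, clusters 1 and 4 had overlapping intervals. Those shares include the retinal clusters, with 49.3% of the cells labelled GFP and 18.6% of those labelled sponge. Of the 365 and 144 cells in the non-retinal clusters, cluster 1 held 136 and 30, and cluster 4 held 81 and 15. On that base both were a smaller share in the library labelled sponge, while clusters 2, 8, 10 and 11 kept their direction. No interval is given on that base. The amount of tissue around the retina taken along at dissection was not given in the sources used here. With 1 library a group, a cluster found mostly in 1 library may be that library.

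**Figure D3:**
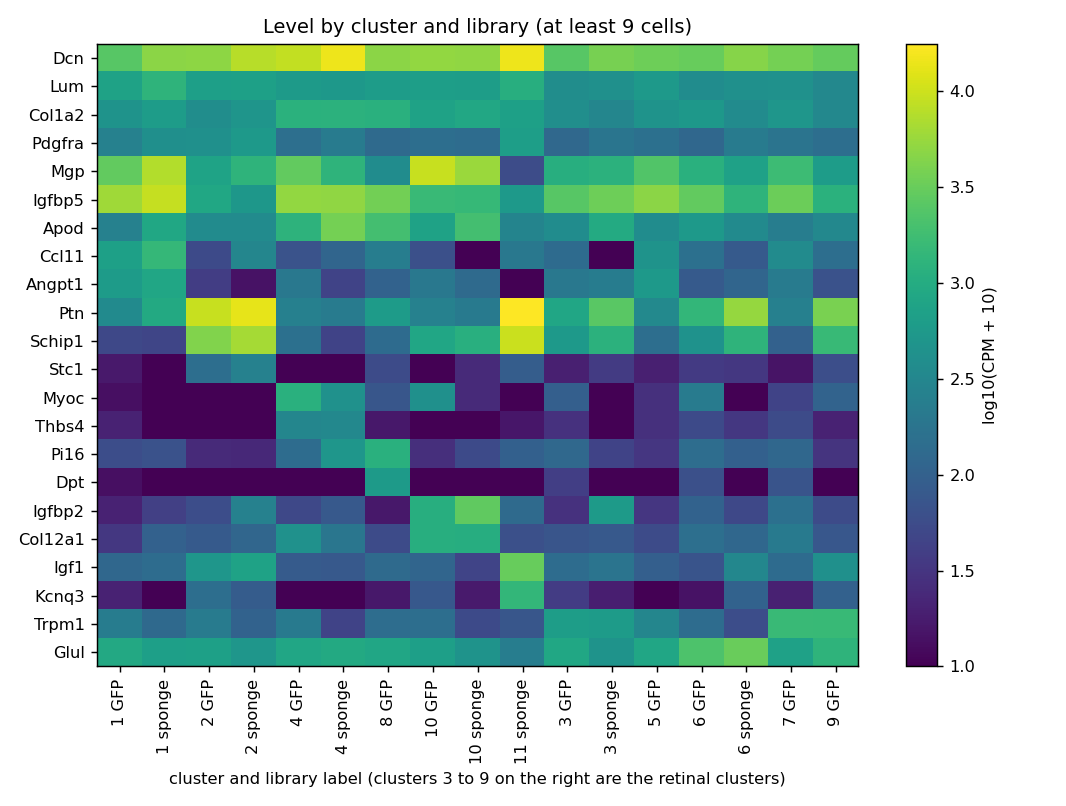
The level of the marker and leading genes (rows) in each cluster and library with at least 9 cells (columns) is shown as log10(CPM + 10), with the non-retinal clusters on the left. Ptn reached 9364 and 13170 CPM in cluster 2, and Dcn was present in every column.

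Several genes that differed over all cells were high in clusters with unequal shares, as the heat map of levels by cluster shows. Some of them also differed within a cluster, and the part of the mix in their ratios was not tested. Ptn (chromosome 6, 36714929 to 36810220, GRCm38, minus strand) was at 1729 CPM (1674 to 1786) in the marker-selected cells labelled GFP and 7871 CPM (7720 to 8023) in those labelled sponge, a log2 ratio of 2.19 (2.13 to 2.24). Within cluster 2 it was at 9364 and 13170 CPM, and in cluster 11, with no cell labelled GFP, at 17612 CPM. Schip1, a scaffold protein of the cell cortex, was at 769 and 3866 CPM over all cells (log2 ratio 2.33, 2.25 to 2.41), and at 4245 and 6369 CPM in cluster 2. Igf1 was at 171 and 752 CPM (log2 ratio 2.13, 1.96 to 2.31). Cluster 2 had 503 CPM (411 to 610) against 739 CPM (662 to 823) of Igf1, and cluster 11 had 3123 CPM. The adventitial genes Pi16 and Dpt were lower over all cells of the library labelled sponge. Pi16 was at 153 and 51.9 CPM over all cells (log2 ratio -1.55, -1.95 to -1.18), but cluster 4 had 132 CPM (83.8 to 198) against 493 CPM (270 to 827), and cluster 8, where it was at 1134 CPM in the library labelled GFP, had 2 cells in the other. Dpt, the rule marker that binds decorin, had 128 UMIs in 65 cells labelled GFP and 0 in the 177 cells labelled sponge. Of the 91 UMIs in non-retinal clusters, 90 were in cluster 8. It chose the cells, so these counts are a description.

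The other rule markers, which chose the cells, are given singly as levels only, and some also enter the medians of gene lists below. Dcn, the proteoglycan decorin (chromosome 10, 97479609 to 97518143, plus strand), was at 3778 and 7403 CPM. Lum, a proteoglycan of the same family, was at 509 and 742 CPM, and the receptor gene Pdgfra at 176 and 383 CPM. Levels of Col1a1 (199 and 187 CPM), Col1a2 (549 and 549 CPM) and Col3a1 (303 and 337 CPM), the main chains of fibrils, were close in the 2 libraries.

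Over all genes, 8802 had at least 50 counts in the marker-selected cells of both libraries together. Of these, 557 (6.33%) were at least 2-fold higher in the library labelled sponge and 587 (6.67%) at least 2-fold lower, and the median log2 ratio was 0.04. In the non-retinal clusters, 6054 genes were measured so, and 427 (7.05%) were at least 2-fold higher and 354 (5.85%) lower. Gene lists use genes with at least 20 counts. There the shares were 7.07% higher and 8.68% lower of 11922 genes in all marker-selected cells, and 7.89% and 7.93% of 9532 genes in the non-retinal clusters. These shares are the background for the lists below.

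Among the 15 genes with the highest ratios, ranked by the interval bound nearest 0, were Car3, Npy, Wnt6, Wnt10a, Igfbp2, Cldn10, Kcnq3, Adamts16, Tbx3os1, Tagln, Schip1, Itga8, Notum and Slc7a5. Single cells set some of them. Car3, a carbonic anhydrase, had 298 UMIs in the cells labelled sponge, of which 232 came from 1 cell of cluster 10, and without the highest cell of each library its log2 ratio went from 5.53 to 3.53. Npy, neuropeptide Y, had 165 UMIs in 5 cells, 87 of them in 1 cell of cluster 10, and Cldn10, a tight junction gene, had 47 of 111 UMIs in 1 cell. Other genes were spread more widely. Wnt6, a secreted Wnt ligand, had 15 UMIs in 12 cells labelled GFP and 162 UMIs in 56 cells labelled sponge (log2 ratio 4.09, lower bound 3.37). In cluster 2 Wnt6 stood at 44.0 CPM (20.1 to 83.5) for the label GFP and 147 CPM (114 to 187) for the label sponge. The ligand gene Wnt10a, which neighbours Wnt6 on chromosome 1, had 10 UMIs in 9 cells and 113 in 50 cells (log2 ratio 4.13, 3.27 to 5.30). Both were at 0 UMIs in cluster 4 of both libraries. Igfbp2, which binds insulin-like growth factors, was at 72.2 and 482 CPM over all cells. Within cluster 10 it reached 1065 CPM (817 to 1365) against 2834 CPM (2562 to 3127), and 1 cell of that cluster gave 145 of its 640 UMIs labelled sponge. Kcnq3 went the other way in cluster 2, with 137 CPM (90.9 to 198) labelled GFP against 77.9 CPM (54.3 to 108) labelled sponge, and 239 of its 294 UMIs labelled sponge were in cluster 11.

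The 15 lowest were Myoc, Sfrp4, Mmp3, Cd55, Ccdc152, Ecrg4, Sfrp2, Tek, Cd34, Chil1, Syn3, Aspn, Pi16, Crip1 and Ebf2. Myoc (chromosome 1, 162639155 to 162649693, plus strand) had 353 UMIs in 70 cells labelled GFP and 14 UMIs in 8 cells labelled sponge, 163 and 10.5 CPM (log2 ratio -3.91, -4.84 to -3.19). Within cluster 4 it was at 1156 CPM and 423 CPM, from 201 and 12 UMIs. The matrix protease gene Mmp3 had 249 and 20 UMIs (log2 ratio -2.91), and 142 of the former were in cluster 4. Its level there was 816 CPM (688 to 962) against 211 CPM (77.6 to 460). Chil1, a chitinase-like secreted protein, was at 84.3 and 20.3 CPM over all cells, and in cluster 4 it had 471 CPM (375 to 585) against 35.2 CPM (0.892 to 196), the latter from 1 UMI. The 15 cells of cluster 4 labelled sponge had a median of 1747 UMIs, so those levels rest on few counts. Sfrp2 and Sfrp4, secreted Wnt inhibitors, had 70 and 69 UMIs in the library labelled GFP and 5 and 1 in the library labelled sponge, and the 5 UMIs of Sfrp2 were in 1 cell. Cd34 and Ebf2, genes of adventitial and progenitor cells, had 128 and 58 UMIs against 17 and 8. The non-retinal clusters are part of the same cells, so overlap with their ranking is built in. Of the 15 highest and 15 lowest genes, 13 and 8 were among those of the non-retinal clusters, a ranking added after seeing the data. There Gpr137b and Plcxd3 were also among the highest, and Ly6c1, Pcolce2, Thbs4, Mfap5, Ebf1 and the mitochondrial mt-Nd4l and mt-Atp8 among the lowest. The mitochondrial mt-Nd4l was lower in other kept cells too, at 1125 and 342 CPM, against 1136 and 275 CPM in the marker-selected cells.

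**Figure D4:**
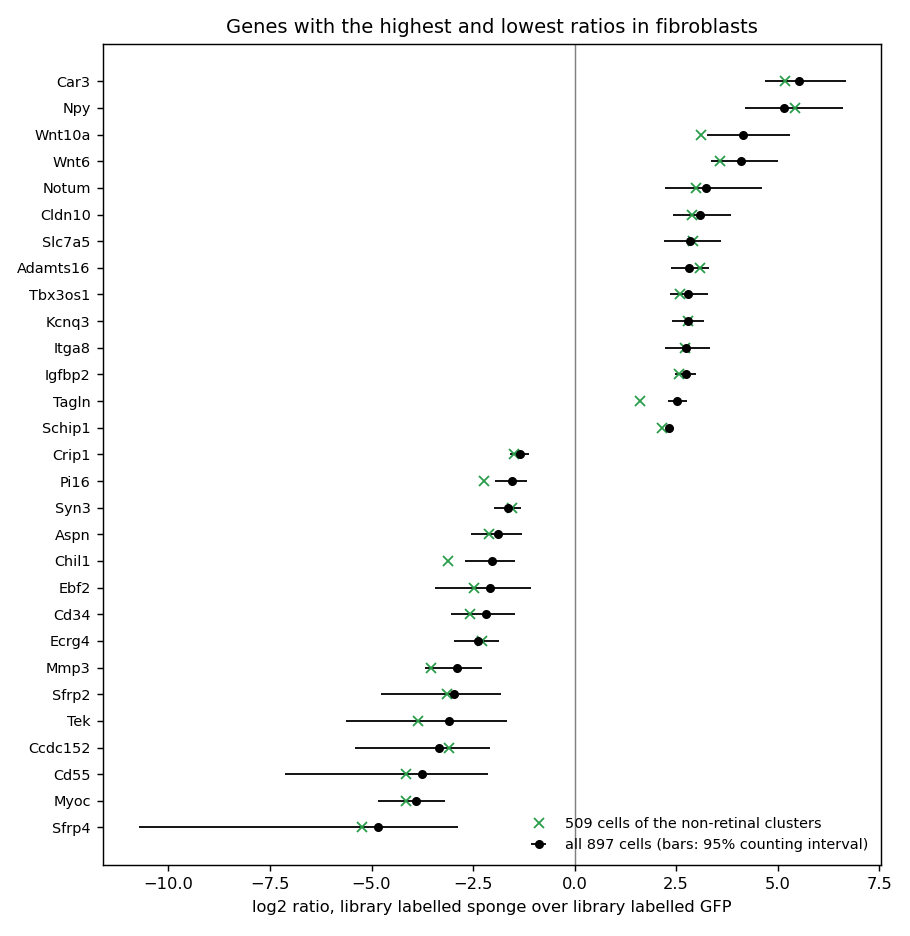
Points give the log2 ratio (library labelled sponge over GFP) of genes among the 15 highest and 15 lowest over all 897 marker-selected cells, with 95% intervals for counting error, and crosses the ratio in the 509 cells of the non-retinal clusters. Car3 at 5.53 and Npy at 5.16 lead, and Sfrp4 at -4.83 and Myoc at -3.91 are lowest.

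Collagens did not move as 1 group. Fibrillar collagens had a median log2 ratio of 0.08 over 8 measured genes, with 0 at least 2-fold higher and 1 lower, and -0.20 over 7 genes in the non-retinal clusters, against 0.03 and 0.06 for all genes, so its sign depended on the cells taken. The list holds the rule markers Col1a1, Col1a2 and Col3a1, which chose the cells, so its median is a description. The same holds for any other list with rule markers in it. The highest was Col5a2, with a log2 ratio of 0.45, and Col11a1 was at -0.77. Basement membrane and network collagens, which form sheets rather than fibrils, had a median of 0.77 over 13 genes (0.81 in the non-retinal clusters), with 5 at least 2-fold higher and 0 lower. Col4a5, a chain of basement membrane, had 97 UMIs in 81 cells labelled GFP and 245 UMIs in 87 cells labelled sponge, 44.9 and 184 CPM (log2 ratio 2.03, 1.69 to 2.39). Col4a6 had 18.1 and 73.0 CPM (log2 ratio 2.00), and Col18a1, the source of endostatin, 34.7 and 123 CPM (log2 ratio 1.82, 1.42 to 2.23). In other kept cells Col4a5 was at 43.7 and 56.4 CPM, so in the cells labelled GFP it lay near that level. Col8a1 was the exception among network collagens, at 192 and 121 CPM. The list median was 0.47 in cluster 1, 0.40 in cluster 2, -1.69 in cluster 4 and 1.64 in cluster 10, over 6, 11, 3 and 7 measured genes. Enzymes and chaperones of collagen processing had a median of 0.74 over 17 genes (0.60 in the non-retinal clusters), with 5 at least 2-fold higher and 1 lower. The collagen chaperone Serpinh1 was at 97.2 and 190 CPM, and Pcolce, which helps to trim procollagen, at 104 and 223 CPM. Lox and Loxl1, which crosslink collagen and elastin, were at 67.1 and 58.7 CPM and at 46.3 and 38.4 CPM.

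Matrix glycoproteins, which link cells to fibrils, had a median of 0.42 over 24 genes, with 6 at least 2-fold higher and 2 lower. Igfbp7 was at 545 and 1233 CPM, and Thbs4 and Smoc2 had log2 ratios of -1.43 and -1.35.

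Small leucine-rich proteoglycans, which space collagen fibrils, had a median log2 ratio of -0.32 over 11 genes, with 1 at least 2-fold higher and 1 lower, and -0.76 in the non-retinal clusters. Over the 12 settings tried this median ran from -0.76 to 0.28. Aspn was at 73.2 and 19.6 CPM (log2 ratio -1.88) and Ogn at 389 and 238 CPM (log2 ratio -0.71, -0.90 to -0.52). Cluster 4 had 966 CPM (825 to 1124) against 1233 CPM (859 to 1715) of Ogn. Podn was higher, at 17.6 and 46.7 CPM. Genes of tendon and sclera had a median of -1.18 over 9 genes, with 2 at least 2-fold higher (Ptn and Edn3) and 5 lower, among them Myoc and Thbs4. The median was 1.22 in cluster 1 and 0.72 in cluster 2, each from 2 measured genes, and -1.25 over 7 genes in cluster 4 and -1.16 over 3 genes in cluster 10. Keratocyte genes, of the corneal stroma, had a median of -0.71 over 7 genes with 1 higher and 3 lower, and the median ran from -1.18 to 0.08 over 12 settings. Kera, a proteoglycan that defines keratocytes, had 0 UMIs in both libraries. Adventitial genes had a median of -0.98 over 18 genes, with 2 at least 2-fold higher and 9 lower. Within clusters 1, 2, 4 and 10 the adventitial median was 1.27, 0.74, 1.84 and 0.31, over 7, 6, 5 and 2 measured genes. Its direction over all cells was thus not that within these clusters, on these fewer genes. Cluster 8, with 2 cells labelled sponge, was not among them.

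Signalling genes held several of the larger ratios. In the list of platelet-derived, fibroblast and insulin-like growth factor signalling, the median was 0.58 over 24 genes, with 9 at least 2-fold higher and 0 lower. Igf1 and Igfbp2, given above, belong to it, and Hgf, the ligand of Met, was at 77.8 and 187 CPM (log2 ratio 1.27, 0.98 to 1.56). Fgf10 was at 6.95 and 45.1 CPM, but 42 of its 60 UMIs labelled sponge came from 1 cell, and without the highest cells its log2 ratio was 1.17. Igfbp5 was at 3342 and 2245 CPM (log2 ratio -0.57), and its ratio ran from -0.84 to 0.24 over the settings tried. The highest cell alone, in cluster 1 of the library labelled sponge, gave 441 of its 2983 UMIs there. Wnt genes and their inhibitors had a median of 0.20 over 18 genes (0.76 in the non-retinal clusters), with 6 at least 2-fold higher and 2 lower. The ligand Wnt5a was at 77.8 and 232 CPM (log2 ratio 1.57, 1.30 to 1.85) in 117 and 96 cells, Wnt4 at 10.7 and 58.7 CPM, and the inhibitor Dkk2 at 188 and 577 CPM (log2 ratio 1.62, 1.45 to 1.80). Axin2, a common target of the pathway, had 18 and 19 UMIs and an interval that included 0. Genes of the TGF-beta pathway, which drives matrix production, had a median of 0.47 over 20 genes, with 3 at least 2-fold higher and 0 lower. Tgfb1 was at 19.9 and 63.2 CPM and the target Id3 at 443 and 1136 CPM, while the receptor Tgfbr2 was at 104 and 128 CPM. Myofibroblast genes had a median of 0.51 over 11 genes, with 3 higher and 0 lower. Acta2, smooth muscle actin, was at 36.1 and 54.9 CPM, below the 71.8 and 220 CPM of other kept cells. The actin-binding gene Tagln was at 87.1 and 503 CPM, and 142 of its 668 UMIs labelled sponge were in 1 cell of a retinal cluster.

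Transcription factors of ocular mesenchyme had a median of 0.45 over 22 genes, with 6 at least 2-fold higher and 2 lower. Lmx1b, a regulator of anterior eye development, was at 18.5 and 80.5 CPM (log2 ratio 2.11, 1.58 to 2.68) in 35 and 55 cells. Tfap2b, of neural crest, was at 87.1 and 284 CPM (log2 ratio 1.70, 1.45 to 1.96) and Foxc1 at 75.0 and 156 CPM. Ebf1 was at 297 and 123 CPM (log2 ratio -1.27) and Ebf2 at 26.9 and 6.02 CPM.

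Among 21 measured genes of antigen presentation, the median log2 ratio in the marker-selected cells was 0.67, with 19 above 0, 7 at least 2-fold higher and 1 lower. H2-D1, an MHC class I heavy chain on chromosome 17 (35262730 to 35267499, plus strand), was at 210 and 541 CPM (log2 ratio 1.37, 1.20 to 1.54). H2-K1, another class I chain, was at 122 and 302 CPM (log2 ratio 1.30, 1.08 to 1.53). These 2 genes have near-identical relatives, so reads could be split between copies. Psmb8, a subunit of the immunoproteasome, was at 24.1 and 73.0 CPM (log2 ratio 1.59, 1.10 to 2.11), and Tap2, of the peptide transporter, at 8.34 and 35.4 CPM. The class II genes of professional antigen-presenting cells differed: Cd74 was at 25.5 and 25.6 CPM and H2-Aa at 19.4 and 7.52 CPM, both below their level in other kept cells. The median was 0.55 over 20 genes in the non-retinal clusters, with 4 at least 2-fold higher and 2 lower. Within clusters 1, 2, 4 and 10 it was 1.43, 0.41, 0.32 and 0.84, over 10, 9, 3 and 4 measured genes. In cluster 1, H2-D1 was at 291 and 1017 CPM, in cluster 2 at 239 and 365 CPM, and in cluster 4 at 276 and 282 CPM from 48 and 8 UMIs.

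Interferon response genes had a median of 0.87 over 35 genes, with 31 above 0, 12 at least 2-fold higher and 0 lower, 34.3% of the list against 7.07% of all genes in that direction. Bst2, a membrane tether of viruses, was at 34.3 and 95.6 CPM (log2 ratio 1.48, 1.05 to 1.91) in 65 and 74 cells. Ifitm3, a block to viral entry, was at 547 and 1183 CPM (log2 ratio 1.11), and the transcription factor Irf1 at 62.5 and 146 CPM (log2 ratio 1.22, 0.90 to 1.55). Iigp1, an interferon-induced GTPase, was at 215 and 467 CPM (log2 ratio 1.12, 0.94 to 1.30). It was not even among clusters: in cluster 1 it was at 103 and 391 CPM, in cluster 2 at 899 and 764 CPM, and in cluster 10 at 515 and 573 CPM. Ifit1 (67.6 and 76.7 CPM) and Ifi27l2a (179 and 192 CPM) had intervals that included 0. The lowest were Tgtp2 and Rsad2, with log2 ratios of -0.46 and -0.43. In the non-retinal clusters the median was 0.53 over 33 genes, with 23 above 0. There 4 were at least 2-fold higher (12.1%), against 7.89% of all genes. Within clusters 1, 2, 4 and 10 the interferon median was 1.25, 0.54, 1.71 and 1.25, over 25, 15, 4 and 8 measured genes. Other kept cells had higher medians in both lists, 1.24 for antigen presentation and 1.11 for interferon response, and the interferon median was 1.67 in mural cells and 0.76 in cells rich in rod transcripts. Ratios of this size were thus found outside the marker-selected cells too, and the part of free RNA from other cells in them was not tested.

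**Figure D5:**
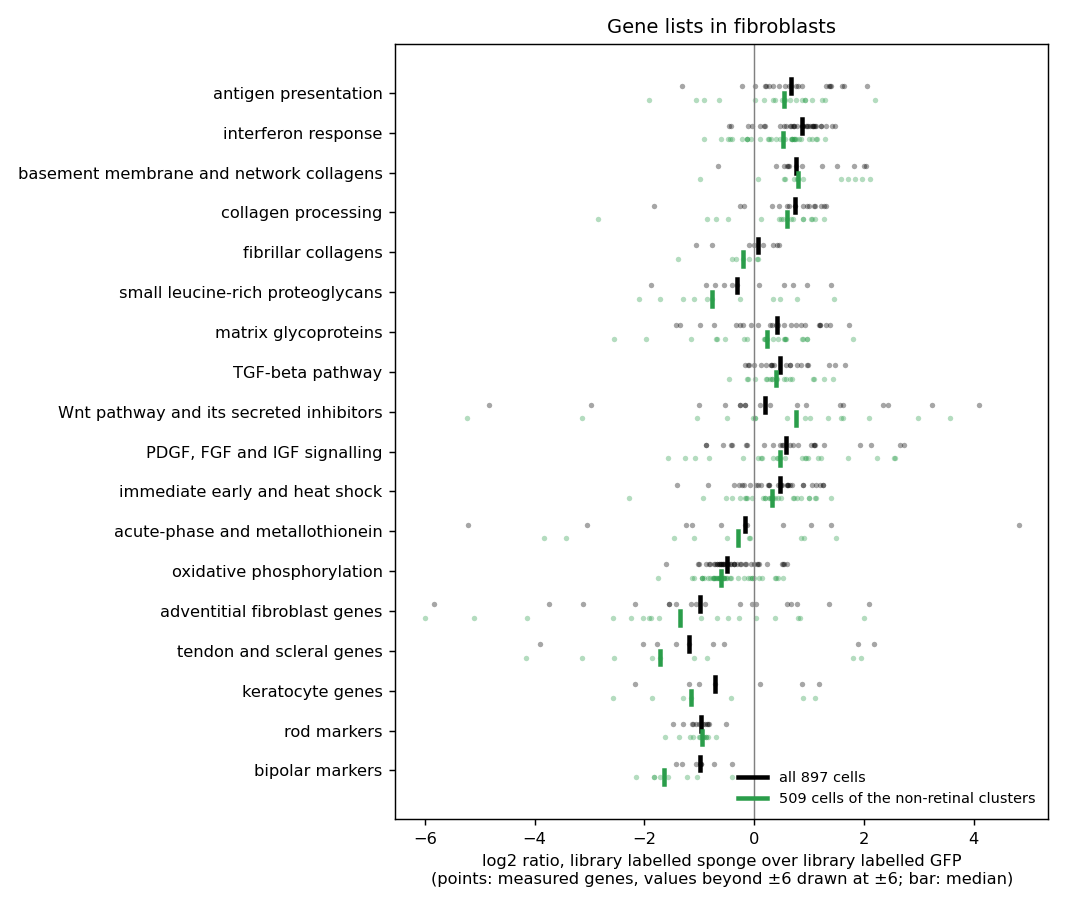
Points give the log2 ratio (library labelled sponge over GFP) of each measured gene of 18 lists, and bars the list's median, over all 897 marker-selected cells (black) and the 509 cells of the non-retinal clusters (green). The antigen presentation and interferon medians, 0.67 and 0.87, lie right of 0, and the rod marker median, -0.97, left of it.

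Promoters of interferon genes are known to hold 2 kinds of site, the GAS (searched as TTCNNNGAA) and the ISRE (searched as GAAA, any 2 bases, GAAA), both on either strand. In 32851 RefSeq promoters of 300 bases (GRCm38.p6), 8.30% hold the first and 3.44% the second. Of the 35 measured interferon genes, 24 had an entry, and 11 of these held the first and 15 the second. Of the 8 with an entry that were at least 2-fold higher, 5 held the first and 4 the second. Of the 17 measured antigen presentation genes with an entry, 1 held the first and 4 the second. A gene counts here if any of its promoters holds a match, so these counts are not like the shares per promoter. The promoters of Psmb8, Bst2 and Irf1, all at least 2-fold higher, are printed 5′ to 3′ because each holds a match, shown in capitals.
Psmb8: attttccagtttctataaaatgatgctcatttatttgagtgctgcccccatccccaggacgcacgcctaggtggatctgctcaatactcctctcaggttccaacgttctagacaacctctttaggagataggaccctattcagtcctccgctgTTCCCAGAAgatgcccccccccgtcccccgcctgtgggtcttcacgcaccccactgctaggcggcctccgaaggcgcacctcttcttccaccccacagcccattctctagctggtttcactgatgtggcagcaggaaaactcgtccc
Bst2: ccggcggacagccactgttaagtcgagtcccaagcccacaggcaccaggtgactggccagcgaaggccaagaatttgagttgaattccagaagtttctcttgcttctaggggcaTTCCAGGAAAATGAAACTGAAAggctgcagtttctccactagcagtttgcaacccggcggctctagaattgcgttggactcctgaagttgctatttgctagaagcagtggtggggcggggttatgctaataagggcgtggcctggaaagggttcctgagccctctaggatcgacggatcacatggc
Irf1: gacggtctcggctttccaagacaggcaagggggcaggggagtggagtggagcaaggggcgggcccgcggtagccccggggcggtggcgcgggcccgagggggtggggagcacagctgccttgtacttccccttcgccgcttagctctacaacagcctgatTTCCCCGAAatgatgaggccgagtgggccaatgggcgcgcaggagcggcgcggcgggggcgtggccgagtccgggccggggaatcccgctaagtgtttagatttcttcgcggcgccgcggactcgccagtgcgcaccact
Their windows are chr17:34197945-34198244 (plus strand), chr8:71537423-71537722 (minus strand) and chr11:53769764-53770063 (plus strand). In Psmb8 and Irf1 a GAS match begins at -97 and -90 from the start, and in Bst2 a GAS match at -136 overlaps the first of 2 ISRE matches at -130 and -124. Ifitm3, also at least 2-fold higher, held 1 GAS and 2 ISRE matches and is not printed. H2-D1, H2-K1, Psmb9 and Psme2, at least 2-fold higher too, held neither match in their windows. The search takes these exact patterns only, so a variant of either site would be missed. A match is a run of letters, not a bound site.

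Immediate early and heat shock genes, which respond to dissociation as well as to other stress, had a median log2 ratio of 0.48 over 30 genes, with 5 at least 2-fold higher and 1 lower. Junb was at 828 and 1811 CPM and Hspb1 with a log2 ratio of 1.25, while Fos was at 1041 and 1062 CPM and Egr1 at 792 and 615 CPM. Egr2 had a log2 ratio of -1.40. Other kept cells had a median of 0.75. Acute-phase and metallothionein genes had a median of -0.17 over 11 genes, with 3 higher and 4 lower. Lcn2, an iron-carrier binding protein of inflammation, had 510 UMIs in 183 cells labelled GFP and 8 UMIs in 5 cells labelled sponge, 236 and 6.02 CPM (log2 ratio -5.21, -6.51 to -4.30). Other kept cells held it at 446 and 31.8 CPM, above the marker-selected cells in both libraries, so it was not enriched in them. Saa3, at 2 and 43 UMIs, owed 40 UMIs to 1 cell. Mt1 was at 2908 and 2649 CPM, and Mt3 had a log2 ratio of -3.05. Nuclear genes of oxidative phosphorylation had a median of -0.50 over 43 genes, with 0 higher and 2 lower, and -0.35 in other kept cells. Chemokines and cytokines split, with 5 higher and 4 lower of 20. Ccl2 was at 109 and 339 CPM (log2 ratio 1.63), with 85 of 451 UMIs in 1 cell, and Cxcl1 at 233 and 169 CPM.

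Genes with a miR-181 seed match in an annotated 3' UTR (GENCODE M21) were not higher than those without one. In the marker-selected cells the median log2 ratio was -0.02 over 2624 genes with a match and 0.07 over 8573 genes without, a difference of -0.09, and 5.07% and 7.89% were at least 2-fold higher. The difference was -0.07 in the non-retinal clusters and -0.08 in other kept cells. Expression level and UTR length were not matched between the 2 sets. The eGFP sequence had 0 and 1 UMIs in the marker-selected cells, so uptake of a vector by them was not shown. In cells without the vector the comparison cannot show an effect of the sponge. The sex-linked Xist was at 1614 and 1062 CPM, and the Y genes Ddx3y, Eif2s3y, Kdm5d and Uty had 0 UMIs in both.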

How the data were processed

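RNA of single cells was captured with 10x Genomics 3' kits after papain dissociation, in 1 library per group. The deposited values are UMI counts per gene and barcode, not normalized, made with Cell Ranger 7.0.0 on mm10 per the submitters' processing notes. Cell calling and the handling of intronic reads were not given in the sources used here. Per label, 39461 (GFP) and 23267 (sponge) barcodes were deposited, with 123040365 and 132067896 UMIs. Barcodes with at least 500 UMIs, 300 genes and at most 25% mitochondrial UMIs were kept. Doublets were not called.

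The members and the 55 gene lists were chosen with earlier results of these data known. Counts were summed over cells and scaled to CPM with exact Poisson intervals. Ratios add 0.5 to both counts and have exact binomial intervals of 95%. They were tried on simulated counts with Poisson error alone, the error that the intervals assume. That trial holds no clumping of UMIs in single cells, so it does not check the intervals for these data. A gene is called higher or lower at 2-fold. Genes need 50 counts over both libraries, or 20 within lists. Named genes are the rule markers, examples among the 2 highest and 2 lowest of each other list, the 15 highest and 15 lowest ratios by the interval bound nearest 0 (20 CPM or more in 1 library, mean level not below that of other kept cells), and the 20 highest over other kept cells at 200 CPM. Further genes named from the lists were chosen after their values were seen. Members were clustered from 2000 variable genes in 20 principal components, with 15 neighbours, by the Leiden method at resolution 1 (scanpy 1.11.5, leidenalg 0.10.2). Gene positions are from GENCODE M21. Some genes that the rule names are not reported here.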

Additional observations from a re-analysis of the deposited data

How the results depend on the processing

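Counting limits every value above, and differences under about the width of the intervals were not detectable at this depth. Each group is 1 library, so variation between mice, eyes and dissociations was not measured, and a wider difference is not thereby established. The intervals also count each UMI as independent, although 1 cell can give most of them, as for Car3. No paired analysis was possible because there is a single library per group and the cells carry no mouse labels. The log2 ratio of the cell shares, -1.26, was -0.87 under a stricter cell filter (1000 UMIs or more, no more than 10% mitochondrial), -0.42 with at least 4 markers and 0.3% of UMIs, -0.76 without exclusion genes and -0.58 in the non-retinal clusters. The counts of genes at least 2-fold higher and lower, 557 and 587, were 233 and 316 with cells thinned to 1000 UMIs, 843 and 1035 from 20 counts, and 285 and 213 with clusters 1, 2, 4 and 10 weighted equally. The lower count was 354 in the non-retinal clusters and 48 among genes at least as high as in other kept cells. Fibrillar collagens had a median of -0.36 with at least 4 markers, -0.20 in the non-retinal clusters and 0.26 without exclusion genes. The median log2 ratio of acute-phase and metallothionein genes was 0.012 under the stricter cell filter, 0.008646 without exclusion genes, 0.53 among genes at least as high as in other kept cells, -0.0647 without the 10% of cells highest in retinal markers, -0.81 thinned and -0.39 from 50 counts. Immediate early genes had 0.66 with equal clusters. The medians of antigen presentation, 0.55 to 1.09, and interferon response, 0.53 to 1.07, stayed above 0 in all 12 settings. Tendon and scleral genes turned to 0.28 and red cell markers to 1.497 without exclusion genes, and amacrine and ganglion markers to 0.021 thinned and 1.13 among genes at least as high as in other kept cells. With equal clusters Kcnq3 was at -1.07, Cd34 at 1.52, Pi16 at 1.47 and Crip1 at 0.16, and the adventitial median at 1.39, against -0.98. The equal weights also leave out the other clusters and so use 311 and 124 cells, and the cause of each change was not tested. The settings with the non-retinal clusters alone and without the highest cell of a gene were added after seeing the data.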

Other observations

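Cytokine receptors and genes of NF-kB signalling had a median log2 ratio of 0.45 over 29 genes, with 3 at least 2-fold higher and 0 lower. Genes of protein folding and secretion had a median of 0.46 over 18 genes, 17 of them above 0. Hyaluronan synthase Has1 was at 70.9 and 301 CPM (log2 ratio 2.08, 1.81 to 2.37) in 108 and 77 cells, and the secreted Fgl2 at 92.2 and 305 CPM. Red cell markers, at 452 and 42.9 CPM summed, and melanocyte markers, at 532 and 170 CPM, were both lower in the marker-selected cells of the library labelled sponge. The apolipoprotein gene Apoe was at 1449 and 2935 CPM, below its 2230 and 4056 CPM in other kept cells.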
